A study of Mus musculus with 2 samples.

Results

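Accessible 3′ ends of genes are regions of open chromatin that lie where a protein-coding gene stops. They were chosen as regions of replicate 1 that a region of replicate 2 overlapped by at least 1 bp. The midpoint had to lie within 1 kb of the annotated 3′ end of a protein-coding gene and over 1 kb from any start site of any gene, by GENCODE release M21 on mm10. The rule found 1504 regions, 3.25% of the 46335 replicated regions over 1 kb from any start site, which are called distal here. With replicate 2 as the base of the same rule there were 1486, an SD of 12.7 between the bases (n = 2). The 1504 regions lay near the ends of 1592 protein-coding genes, 7.26% of 21938.

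The data are ATAC-seq, in which a transposase cuts and tags open DNA, from regulatory T cells labelled as primary cells of C57BL/6NJ mice, with neither sex nor age recorded. There was 1 group of 2 libraries, with no second condition, treatment or control. The labels give both the same donor, so whether they came from more than 1 animal is not known, and the spread between them may be technical. Replicate 1 held 68903 regions and replicate 2 held 78262, and the read depth behind them is unknown. Names of the deposited entries include 72hrs, ASTARR and insert, which no label explains, so the libraries may not be plain ATAC-seq.

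A 3′ end is where a finished transcript is cut and given its poly(A) tail, while the polymerase runs on for some distance before it leaves the DNA. Open chromatin near gene ends can hold enhancers, sites of the looping factor CTCF, or antisense start sites that the annotation lacks. Regulatory T cells restrain immune responses, depend on interleukin-2 and are defined by the transcription factor Foxp3.

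The cell type label was checked against promoters, counted as open where a region in both replicates lay within 1 kb of a start site of the gene. All 6 T cell markers (Cd3d, Cd3e, Cd3g, Cd4, Cd5 and Lck) and all 5 regulatory T cell markers (Foxp3, Il2ra, Ctla4, Ikzf2 and Tnfrsf18) had open promoters. So did 2 of 5 B cell markers (Cd79b and Pax5), 2 of 5 myeloid markers (Cd14 and Cd68), 1 of 2 cytotoxic T cell markers (Cd8b1) and none of 3 hepatocyte markers, against 64.4% of all protein-coding genes. In such bulk samples a few fully open cells and many weakly open ones cannot be told apart.

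Among 16 consensus motifs sought, those of CTCF, SP/KLF, NRF1 and ETS stood at a larger share of 3′-end regions than of other distal regions. CTCF letters, the most common of these at gene ends, are shown first. Of the 8 strongest regions with these letters, 7 are shown by the 30 bases below, 5′ to 3′ on the strand that carries the motif, with the match of 12 letters in capitals. The sequences come from the RefSeq GRCm38 assembly, which is mm10.
Zscan10, coding exon, chr17:23610704-23610733, minus strand: cggtgtgaaCCAGCAGGTGGCgcagcaagt
Ror2, 3′ UTR, chr13:53109743-53109772, plus strand: catcctccgCCAGCAGGGGGCtcacggagc
Mef2b, intron, chr8:70166909-70166938, minus strand: cgctcctggCCGCCAGGGGGCgcccaactc
Shf, downstream, chr2:122348663-122348692, minus strand: ggcgcgcttCCCTGAGGCGGCgcgctcccg
Gdf15, coding exon, chr8:70629887-70629916, minus strand: gggtagccgCCGGCAGGGGGCgccgaagcg
Ttll1, downstream, chr15:83483694-83483723, minus strand: ccaaggaaaCCAGGAGGGGGCaccagatta
Ankrd45, downstream, chr1:161170895-161170924, minus strand: tcctgctcgCCAGGAGGTGGCtctcgggct

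AP-1 letters, bound by Fos, Jun and BATF proteins that T cell activation induces, stood at a smaller share of 3′-end regions than of other distal regions. The 4 strongest regions with them are shown in the same way, with TGANTCA in capitals.
Hacl1, downstream, chr14:31597672-31597701, plus strand: tcttctgtcaaTGACTCAgtaatgctctct
Togaram1, downstream, chr12:65023010-65023039, plus strand: tttttacttgaTGAGTCActgagtttccag
Gm17571, downstream, chr9:13443816-13443845, plus strand: gaaacatagacTGACTCAgggaaaggttag
Appl1, 3′ UTR, chr14:26919453-26919482, plus strand: ctcagaaagaaTGAGTCAtctttcatgtct

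More of the regions lay just past the end of the nearest gene than inside that gene. A midpoint downstream of the end was found for 844 of 1504 (56.1%), and 438 (29.1%) lay in the 3′ UTR of the gene. A further 110 (7.31%) lay in a coding exon, 97 (6.45%) in an intron and 15 (0.997%) in another exon of the gene. The share inside the gene was 43.9% with either replicate as the base. The span of 406 regions (27.0%) crossed the end itself. These had a median width of 836 bp and a median signal of 6.55 in replicate 1 and 6.37 in replicate 2. The signal is the authors' own value for each region, on a scale that no source states. Midpoints lay a median of 544.5 bp from the end. No gene had 3 or more regions with its end as the nearest, and 38 of 1466 such genes had 2. At ends of 2 or more genes there were 108 regions, and 1 region alone lay at 21 gene ends, so genes that share a region are not independent. Another replicated region stood within 2 kb of 248 regions (16.5%), and the median distance to the nearest was 5691.5 bp.

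Regions were denser near gene ends than in other distal DNA. Within 1 kb of 3′ ends there were 41.5 regions per Mb of DNA that the rule could choose, against 27.0 in other distal DNA inside protein-coding genes and 13.1 outside them. With replicate 2 as the base these densities were 41.0, 26.8 and 13.0 per Mb. All other distal DNA together held 18.3 and 18.2 per Mb. Regions found in both lists entered from either base, so the closeness of these values is no measure of replicate error. With 2 libraries of 1 group no test was made.

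Along the end, density dipped just before it and was higher after it. From 5 to 3 kb upstream there were 32.2 regions per Mb in replicate 1 and 32.0 in replicate 2, and from 3 to 1 kb upstream 34.3 in both. Density had risen to 45.4 and 43.0 per Mb from 500 to 250 bp before the end. The last 250 bp before the end held 29.1 and 31.0 per Mb. The next 250 bp held 33.0 and 33.6. From 750 to 1000 bp past the end the density was 56.9 and 54.4, and the bin starting 1500 bp past it had the highest value within 5 kb, 58.4 and 57.2. Between 3 and 5 kb downstream 39.6 and 39.4 remained. GC content moved with the dip, at 41.5% in the last 250 bp and 44.1% in the next, against 45.3% from 750 to 1000 bp past the end, and its part was not tested. By midpoint, the last 250 bp did not form the lowest bin within 5 kb. The lowest bins lay upstream, at 27.9 in replicate 1 and 27.1 in replicate 2. By summit, the point of highest signal that the authors gave, the last 250 bp were the lowest bin, at 26.6 and 24.9, with 38.2 and 38.4 just after the end. In DNA over 3 kb from any start site the dip and the later peak were of similar size, 28.9 and 31.6 before the end and 59.7 and 57.8 in the bin starting at 1500 bp. Placing regions by summit and keeping over 3 kb from start sites were chosen after the data were seen. Here and below, densities of replicates 1 and 2 take each as the base of regions found in both lists. Their closeness is therefore no measure of replicate error.

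**Figure D1:**
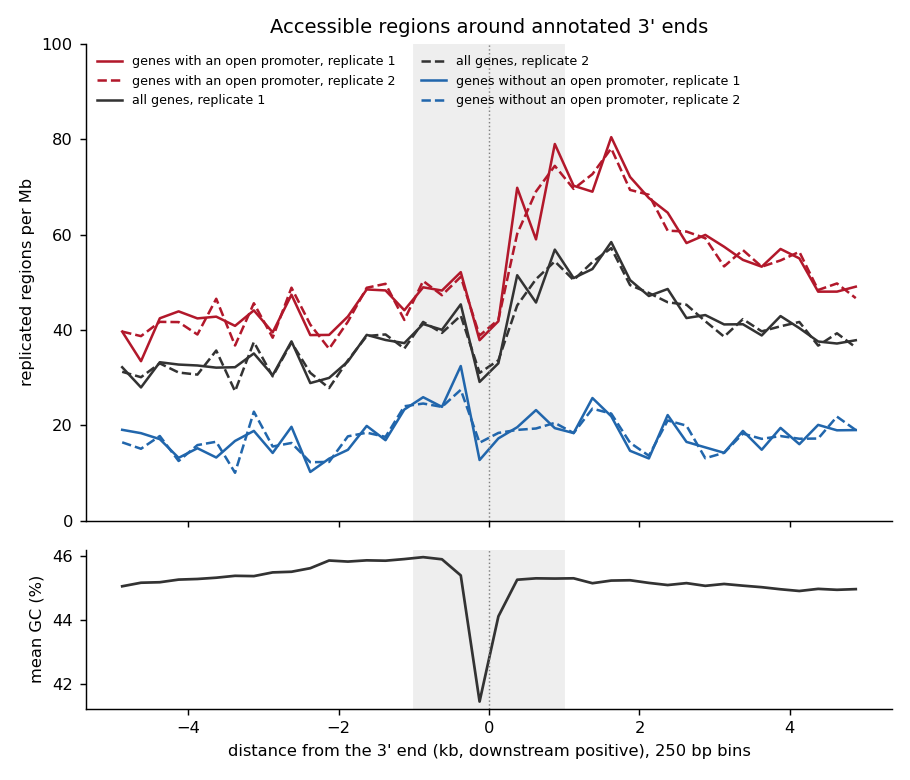
Replicated distal regions per Mb in 250 bp bins from 5 kb before to 5 kb after annotated 3′ ends (upper panel, for genes with an open promoter, all genes and genes without an open promoter; solid line replicate 1, dashed line replicate 2) and mean GC content (lower panel, axis not from 0). Grey marks the 1 kb to either side from which regions were chosen; genes with an open promoter had more regions past the end, with a dip at the end itself.

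The excess past the end was seen at genes whose promoter was open. At these genes, density was 46.8 per Mb with either replicate as the base over the last 1 kb of the gene. It was 62.3 and 61.4 over the 1 kb after the end, and 67.8 and 67.4 from 1 to 3 kb after it. At genes without an open promoter the same stretches held 23.6 and 23.0, then 19.9 and 19.3, then 18.5 and 18.5 per Mb. There the last 1 kb before the end held more regions per Mb than the 1 kb after it with either replicate as the base. Further away this did not hold, with 16.5 and 16.7 from 3 to 1 kb upstream. The split by promoter was chosen after the data were seen.

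Genes with an accessible end more often had an open promoter as well. Of the 1592 genes, 1308 (82.2%) had one, against 62.7% of 19979 genes that could have had a region but did not. Counted the other way, 9.45% of genes with an open promoter and 3.67% of genes without one had a region at the end. With replicate 2 as the base the shares were 9.39% and 3.59%. The gap was not particular to the end itself. From 5 to 3 kb upstream, density was 41.2 per Mb at genes with an open promoter and 16.4 at those without. With replicate 2 as the base these were 41.2 and 15.9. From 3 to 5 kb downstream they were 52.8 and 17.7, or 52.4 and 17.8 with replicate 2 as the base. Genes with an open promoter were longer, with a median of 24.4 kb against 8.76 kb, so the shares were also taken in 5 classes of gene length of like size. In the shortest class they were 6.97% and 3.01%, in the middle class 10.1% and 4.59%, and in the longest 8.36% and 3.67%. The share was higher with an open promoter in all 5 classes and with either replicate as the base. How much transcription there was at these genes was not measured. Regions at gene ends were not left out when promoters were counted as open, so the same region could count as both. The spans of 71 of the 1504 regions reached within 1 kb of a start site. Of these 71, 91.5% had a nearest gene with an open promoter. The part of such regions in the shares was not tested.

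The share of accessible ends differed with the gene that comes next. Convergent neighbours, which face each other end to end, had a region at 8.58% of ends, against 6.16% for tandem neighbours that follow in the same direction. At 2 kb or less from the next gene the shares were 11.6% and 3.49%, or 11.5% and 3.49% with replicate 2 as the base. A tandem neighbour this near places its start site, and the 1 kb around it that the rule leaves out, close to the end. Per Mb of DNA that the rule could choose, the genes with a region numbered 66.8 for convergent and 37.6 for tandem neighbours at 2 kb or less. Beyond 10 kb the neighbours were nearer to each other, at 6.82% and 7.01% from 10 to 50 kb and 5.14% and 4.77% beyond 50 kb. Open promoters also fell with distance, at 82.8% of convergent genes at 2 kb or less and 54.7% beyond 50 kb. Their part in the fall of the shares was not tested. Ends that lay inside another gene had a region in 8.34%. The poly(A) hexamer AATAAA or its common variant in the last 50 bases was about as common at accessible ends (74.6%) as at those without a region (72.0%).

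**Figure D2:**
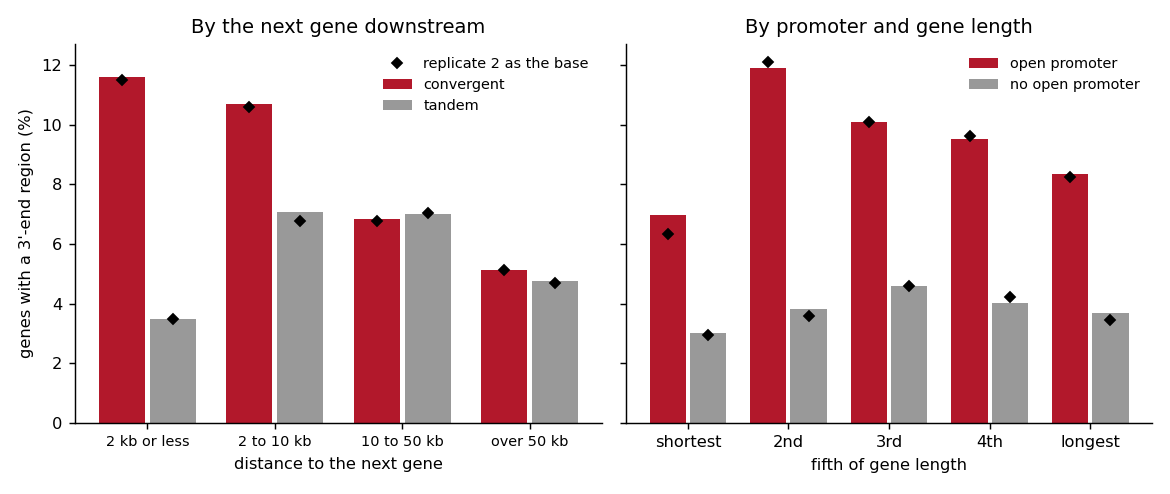
Percent of protein-coding genes with an accessible 3′ end, by orientation of and distance to the next gene (left; convergent left of tandem) and by promoter and gene length (right; open left of not open), as bars for replicate 1 as the base and diamonds for replicate 2. At 2 kb or less convergent genes stood at 11.6% and tandem genes at 3.49%, and the share was higher with an open promoter in each class of length.

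Chromosome X had few regions of this kind, 17 with replicate 1 as the base and 18 with replicate 2. These were 10.4 and 11.0 per Mb that the rule could choose. Chromosome 11, at 55.7 and 54.6 per Mb, was the densest. Other distal regions were also few on X, at 5.93 and 5.88 per Mb, against 29.2 and 29.0 on chromosome 11. Of the 940 genes of X whose end the rule could choose, 43.6% had an open promoter. None of the 181 such genes of Y had an accessible end, while 4 (2.21%) had an open promoter. The sex of the animals was not collected, per the labels.

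By signal the regions were weaker than other distal regions. At gene ends the median was 5.49 in replicate 1 and 5.74 in replicate 2, while other distal regions had 6.25 and 6.51. Regions in first introns had 5.73 and 5.90, and those in coding exons elsewhere 5.90 and 6.34. The quartiles at gene ends were 3.82 and 8.18 in replicate 1 and 3.82 and 8.48 in replicate 2. The lowest 20% of each list by signal held 25.9% and 20.2% of the regions at gene ends, against 18.2% and 12.5% of other distal regions. The −log10 q, also the authors' value, was lower at gene ends too, with medians of 16.5 and 24.8 against 19.1 and 28.7 for other distal regions. Coding exon regions elsewhere had 15.5 and 25.5, below gene ends in replicate 1 and above them in replicate 2. The width was slightly larger, a median of 591 and 681 bp against 572 and 641.5 bp. Between the replicates the regions kept their order: Spearman's rho over the 1504 regions, which are not independent samples, was 0.922 for signal, and summits lay a median of 25 bp apart. Of regions of replicate 1 at gene ends, 89.2% were overlapped by replicate 2, against 91.9% of other distal regions. From replicate 2 the shares were 75.8% and 78.3%.

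The DNA of the regions was richer in GC than that of other distal regions. Within 100 bp of the summit the median GC content was 50.7% with either replicate as the base, against 47.8%. Windows with a CpG ratio (observed over expected) of at least 0.6 and a GC content of at least 55% made up 134 of 1504 (8.91%), and 9.15% from replicate 2, against 2.48% and 2.47% of other distal regions. Coding exon regions elsewhere had a higher share still, 26.6% and 27.0%. CpG-rich regions at gene ends were stronger than the rest, with a median signal of 7.31 and 7.02. Of the 1504 regions, 40 lay within 1 kb of a start site that RefSeq annotates and GENCODE does not. The spans of 71 regions reached within 1 kb of a GENCODE start site although their midpoints did not, and 2 held one.

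The CTCF letters, a core of the sequence that the looping factor binds, were present within 100 bp of the summit in 173 of 1504 regions (11.5%), against 6.48% of other distal regions. From replicate 2 the shares were 12.05% and 6.45%. Both bases keep regions found in both lists, and 1415 of the 1504 regions met the rule from either, so the closeness of the bases is set by the rule. With no overlap asked for, the share at gene ends was 10.4% in replicate 1 and 10.1% in replicate 2. Coding exon regions elsewhere stood at 10.4% and first-intron regions at 3.87%. The CTCF share moves with GC content, so it was also taken within classes of GC. It was higher at gene ends in all 6 classes with either base: 15.7% against 9.62% at a GC content of 50 to 55%, 7.46% against 5.61% at 45 to 50%, and 15.2% against 14.1% at 60% or more. In replicate 2 these pairs were 15.0% against 9.68%, 7.30% against 5.31%, and 17.4% against 14.7%. The median signal of regions with the letters was 6.21 and 6.69 in replicates 1 and 2, and that of regions without them 5.42 and 5.62. The centre of the match lay a median of 34.5 bp from the summit.

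CTCF sites have a direction, which decides with which partner a loop forms. Downstream of genes, single matches, read in the direction shown, lay more often on the strand of the gene, in 68 regions, than on the opposite strand, in 36. The counts were 65 and 37 from replicate 2. Inside genes the counts were 33 and 33, and 45 and 29 with replicate 2 as the base. Of the sequences shown above, those of Shf, Gdf15 and Ttll1 lie on the strand of their gene and the other 4 on the opposite strand. The letters were spread over the kinds of region, in 13.6% of coding exon, 12.4% of downstream and 9.36% of 3′ UTR regions. No binding of CTCF was measured.

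Letters of factors that act in activated T cells were found in a smaller share of regions at gene ends than of other distal regions. AP-1 (TGANTCA) was found in 15.6% of regions at gene ends, against 23.1% of other distal regions, and in 17.6% and 23.7% with replicate 2 as the base. Within classes of GC, AP-1 was lower at gene ends in all 6 classes with replicate 1 as the base, and in 5 of 6 with replicate 2, the exception being 28.8% against 28.1% at 40 to 45%. At 55 to 60% the shares were 5.93% against 15.2%, and 8.84% against 15.7% with replicate 2. STAT letters (TTCNNNGAA), bound by the factors that cytokine receptors activate, stood at 10.7% against 16.3%, or 11.4% and 16.4% with replicate 2 as the base. This was not particular to gene ends: coding exon regions elsewhere had AP-1 letters in 11.7% and 12.2%, and STAT letters in 10.9% and 10.5%, while first-intron regions had AP-1 letters in 24.1% and 24.6%. IRF stood at 2.66% against 4.76%, NF-kB at 0.598% against 1.32%, and TCF/LEF (ATCAAAG) at 2.79% against 4.40%. RUNX (TGTGGTT) stood at 8.38% against 10.7%, the letters AGATAAG of GATA factors at 1.80% against 2.69%, and NFAT (ATGGAAA) at 4.26% against 5.28%. The GC-rich letters of SP/KLF (GGGCGGG), NRF1 and ETS (CCGGAAG) were more common at gene ends than in other distal regions. SP/KLF stood at 4.85% against 3.55%, NRF1 at 0.731% (11 regions) against 0.234%, and ETS at 2.39% against 1.78%. For ETS the gap was smaller with replicate 2 as the base, at 2.09% against 1.80%. Nor was this particular to gene ends. Coding exon regions elsewhere had SP/KLF letters in 9.06%, NRF1 in 1.44% and ETS in 4.75%. Their shares were also above those of gene ends with replicate 2 as the base. Forkhead letters (TGTTTAC), the family of Foxp3, stood at 1.93% against 2.38%, the E-box (CACGTG) at 3.06% against 3.15%, and YY1 (AAGATGGCG) at 0.199% against 0.201%. The poly(A) signal letters AATAAA were found in 12.3% against 12.4% of windows. Both strands were searched, matches of different motifs may overlap, and 9 regions held both CTCF and AP-1 letters. CTCF, IRF, NF-kB and NRF1 letters are given by name. GC content differs between the sets, and for motifs other than CTCF and AP-1 its part was not tested.

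**Figure D3:**
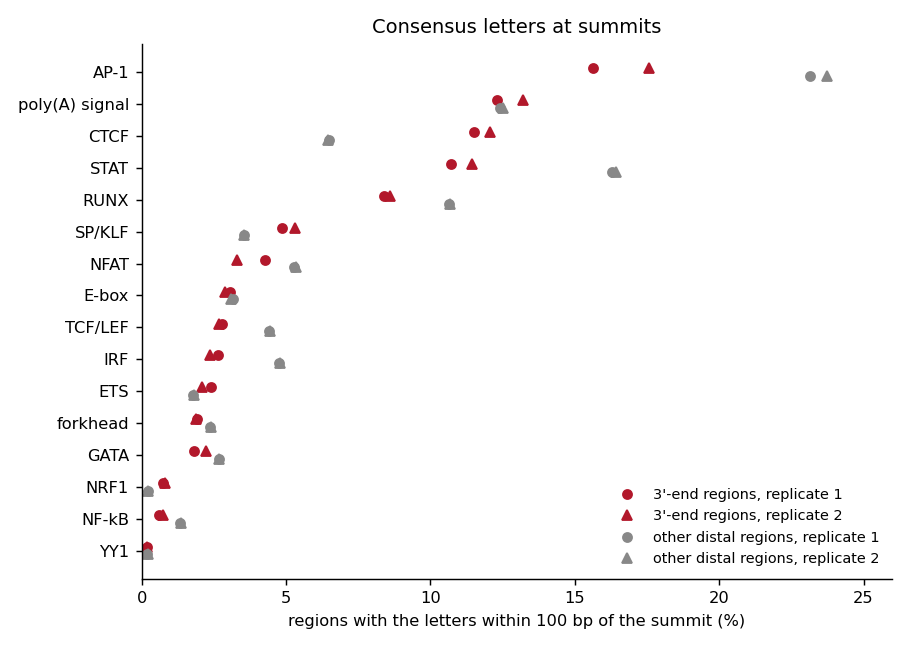
Percent of regions with each set of consensus letters within 100 bp of the summit, for accessible 3′ ends (red) and other distal regions (grey), with circles for replicate 1 and triangles for replicate 2 as the base. CTCF lay to the right of other distal regions (11.5% and 6.48%) and AP-1 to the left (15.6% and 23.1%).

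Among single regions, the strongest by a wide margin lay in the 3′ UTR of Lars2, the mitochondrial leucyl-tRNA synthetase, at chr9:123461798-123462187. Its signal was 36.3 in replicate 1 and 36.5 in replicate 2, and its −log10 q 1255 and 1780, the highest of all regions at gene ends on both measures. Part of its sequence also matched 10 other places on 8 chromosomes, at up to 98.8% identity over stretches of up to 236 bp. None matched the mitochondrial genome. No source used here says how reads from such copies were assigned, so this value is uncertain. The same holds for Gja5 (connexin 40), at 19.7 and 19.7, which had 1 other match of 379 bp at 100% identity. It holds for Cyp4f16, a cytochrome P450, at 19.4 and 18.9 with 4 other matches on 1 chromosome, and for the region past Togaram1, a protein of cilia, at 16.1 and 20.1. The Togaram1 region had 11353 other partial matches, none longer than 128 bp.

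The 6 others among the 10 strongest had no such match elsewhere in the genome. Hacl1, a peroxisomal lyase, had 18.6 and 19.4 in a region 977 bp past its end. That end lay inside another gene, and the matched region of replicate 2 did not meet the rule. Csrp1, a LIM domain protein, had 18.6 and 18.5 at 752 bp past its end. Wfikkn2, a secreted binder of TGF-beta family ligands, had 17.997 and 19.4 across its end. Zscan10, a zinc finger factor of pluripotent cells, had 18.1 and 17.1 in a coding exon, with the CTCF letters. Izumo1, which sperm need to fuse with the egg, had 17.4 and 16.1, and Ror2, a Wnt5a receptor, had 16.3 and 16.5 with the CTCF letters. Of these 6 genes, Zscan10, Izumo1 and Ror2 had no open promoter, so that an open end stood without an open start. The Izumo1 end lay inside another gene, and the midpoint of its region fell in a coding exon of another gene. GC content at its summit was 77.1% and the CpG ratio 1.12, with a start site 1399 bp from the midpoint. To which gene this region belongs cannot be told.

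By −log10 q other genes led after Lars2. Acvrl1, a receptor of the TGF-beta family, had 316 in replicate 1 and 487 in replicate 2, and Fcmr, the Fc receptor for IgM on lymphocytes, had 327 and 455. Slc12a3, a kidney salt transporter, had 263 and 426, and Zfp771, a zinc finger protein, had 274 and 383. The others were Sec14l2, Hspb7, Dnajb12, Sfn and Gdf15, from 235 to 262 in replicate 1 and from 349 to 396 in replicate 2. The 2 measures ranked these regions differently, and by signal Dnajb12, at 6.40 and 6.51, stood at the 48.3 and 54.0 percentile.

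Genes of the regulatory T cell program often had an accessible end, but one that was weak by signal. In the list of 30 core genes, 11 had a region (36.7%), and 10 with replicate 2 as the base, against 7.26% of all protein-coding genes. By signal the median region stood at the 15.4 percentile in replicate 1 and at 30.2 in replicate 2, where all regions at gene ends had medians of 39.6 and 47.1. Its percentile by −log10 q was 43.4 and 39.2, against 42.2 and 49.1. Of the 30 genes, 27 had an open promoter. Like the other lists, this one was chosen with earlier results of these data known.

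The receptors gave the strongest and the weakest of these. Icos, a costimulatory receptor, had a signal of 8.05 and 6.91 in a region across its end at chr1:60999513-61000781. Izumo1r, which encodes the folate receptor family protein FR4 on regulatory T cells, had 6.81 and 7.81 at 830 bp past its end. These 2 stood above the medians of 5.49 and 5.74 in both replicates, and no other gene of the list did. Gpr83, a G protein-coupled receptor and the neighbour of Izumo1r, had 5.71 and 4.27 in its 3′ UTR, above the median in replicate 1 alone. Nrp1, a semaphorin co-receptor, had 4.50 and 4.39, and Tnfrsf9, the receptor 4-1BB, had 4.20 and 4.40.

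The others lay lower. Socs2, an inhibitor of cytokine signalling, had 3.58 and 4.50, and Lag3, an inhibitory receptor, had 3.03 and 3.27 with the CTCF letters. Capg, an actin-capping protein, had 2.09 and 3.31, and Lrrc32, which encodes the TGF-beta carrier GARP, had 2.19 and 2.15. Il2ra, the alpha chain (CD25) of the interleukin-2 receptor, had 1.99 and 1.94 in a region across its end at chr2:11692456-11693590. That is the 0.415 and 0.636 percentile by signal, but 30.3 and 36.6 by −log10 q, and RefSeq has a start site 588 bp from its midpoint. Tnfrsf4, the receptor OX40, had 1.68 and 1.90. For Nrp1 and Capg the matched region of replicate 2 did not meet the rule. Foxp3 itself has its last exon over the end of Ccdc22, whose region at chrX:7593438-7594411 had 4.42 and 4.80. This gene was chosen for its place and not by rule.

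Sequences of the Izumo1r and Lag3 regions, 201 bases about the summit in mm10 on the minus strand, which is the strand of both genes, are shown as the list's stronger and CTCF-bearing downstream examples. Capitals mark the E-box and then the ETS letters in Izumo1r and the CTCF letters in Lag3. The ETS and CTCF letters stand as their reverse complements.
Izumo1r, chr9:14884678-14884878: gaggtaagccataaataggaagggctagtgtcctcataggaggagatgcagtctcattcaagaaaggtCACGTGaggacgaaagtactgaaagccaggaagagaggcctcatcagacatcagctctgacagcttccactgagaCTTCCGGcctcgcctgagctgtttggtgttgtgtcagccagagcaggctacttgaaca
Lag3, chr6:124903626-124903826: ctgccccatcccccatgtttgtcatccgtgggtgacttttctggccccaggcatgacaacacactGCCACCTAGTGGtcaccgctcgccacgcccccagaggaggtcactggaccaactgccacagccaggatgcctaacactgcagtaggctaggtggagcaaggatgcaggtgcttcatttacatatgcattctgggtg

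Pan T cell genes had a region at 9 of 28 ends (32.1%), but 5 with replicate 2 as the base. Thy1, a surface glycoprotein of T cells, had 6.29 and 5.62, with AP-1 letters, and Cd6, a co-receptor, had 5.38 and 6.01. The transcription factors Runx3, Runx1 and Bcl11b had 5.34 and 5.08, 3.58 and 3.87, and 3.32 and 4.06. Cd3e, a chain of the T cell receptor complex, had 3.40 and 3.78. Lck, its kinase, had 3.35 and 2.83, Lcp2, its adaptor SLP-76, had 2.9997 and 2.46, and Cd2, an adhesion receptor, had 2.71 and 2.32. The 4 that failed with replicate 2 were Cd6, Bcl11b, Lcp2 and Cd2, at 871 to 994 bp past the end in replicate 1, near the limit of 1 kb.

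**Figure D4:**
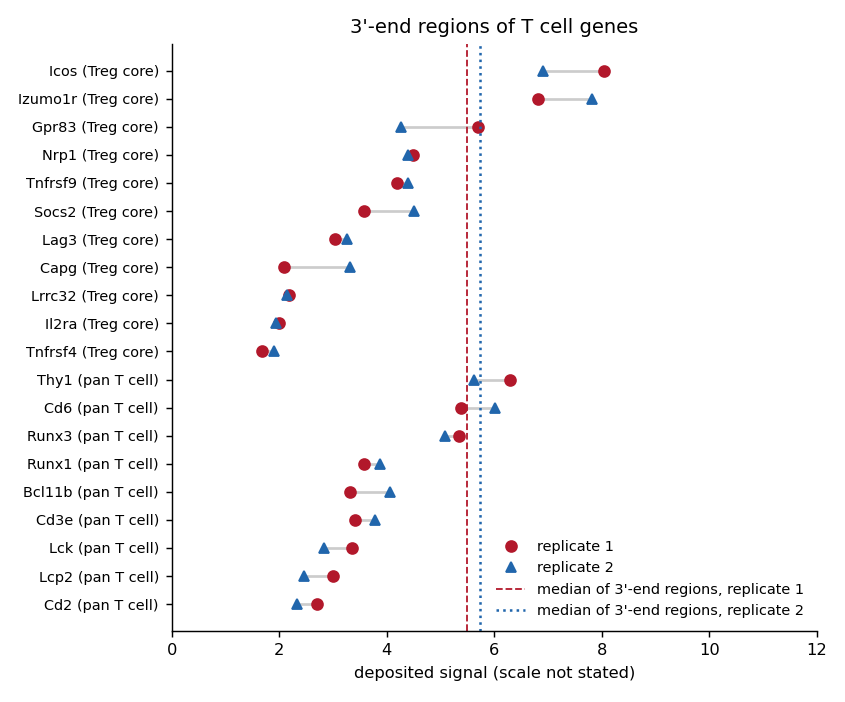
Deposited signal of the accessible 3′-end regions of regulatory T cell core and pan T cell genes, in replicate 1 (circle) and replicate 2 (triangle). Vertical lines mark the medians over all accessible 3′ ends, 5.49 (replicate 1, dashed) and 5.74 (replicate 2, dotted); Icos and Izumo1r lie above both lines in both replicates.

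Signalling genes of the interleukin-2 pathway had the highest share of any list, 7 of 18 (38.9%) with either base. These were Il2ra, Stat3, Stat5a, Cish, Socs1, Socs2 and Socs3. The rank counts genes, and the 7 genes had 6 regions among them. Il2ra and Socs2 also count in the list of regulatory T cell core genes, so these lists are not separate results. Stat3 and Stat5a, the factors that cytokine receptors phosphorylate, share 1 region of 3417 bp at their overlapping ends on opposite strands, at chr11:100883071-100886487. It was the widest region at any gene end, but its signal was 2.17 and 2.83. The median region of the list stood at the 0.734 and 7.02 percentile of signal, and at 27.9 and 37.3 by −log10 q. Naive and quiescent T cell genes had 5 of 16 (31.2%), and 4 with replicate 2 as the base. The 5 were Foxo1, Klf2, Ccr7, Il7r and Btg1. Of these Il7r, the interleukin-7 receptor, was the strongest, at 12.4 and 9.46, and Ccr7, a lymph node homing receptor, was among the 5 widest at 3016 bp, with 2.51 and 2.72.

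The other T cell and receptor lists lay between 16.0% and 22.2%. Activation transcription factors had 6 of 27, namely Nfatc2, Fosl2, Irf4, Irf8, Egr3 and Myc, with Nfatc2 the strongest at 5.92 and 5.48. Chemokine and cytokine receptors also had 6 of 27, and T cell receptor signalling had 5 of 25, with the adaptor Grap2 at 9.95 and 10.3. With replicate 2 as the base, T cell receptor signalling had 4 and activation transcription factors 7. TGF-beta signalling had 3 of 18 (Smurf1, Pmepa1 and Lrrc32). T helper lineage genes had 4 of 25, and 2 with replicate 2 as the base. Among them Il6ra, the interleukin-6 receptor, had 7.87 and 7.53 across its end with a −log10 q of 170 and 239.

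Lists that are not of T cells were mixed. Cell cycle genes had 4 of 19 and housekeeping genes 3 of 16 (Actb, Gapdh and Tfrc), so a share above 7.26% was not limited to T cell genes. AU-rich element RNA decay had 2 of 18 (Zc3h12a and Zc3h12d). Cleavage and polyadenylation factors, which make the 3′ end of the transcript, had 2 of 21 (Pcf11 and Papola), and chromatin looping genes 1 of 15 (Pds5a). B cell genes had 2 of 12 (Cd79a and Ebf1), skeletal muscle 2 of 15 (Acta1 and Myod1), hepatocyte 1 of 15 (Apoa1), and myeloid and neuron genes none of 13 and of 15. With replicate 2 as the base, AU-rich element RNA decay had 3, cleavage and polyadenylation 1 and B cell genes 1. Myod1, the muscle factor, had 9.79 and 9.34 with the CTCF letters and no open promoter. Apoa1 had 9.93 and 14.1, a wide gap between the replicates. Of the 348 genes in the 19 lists, 65 had a region. Open promoters, which went with accessible ends over all genes, were also uneven among the lists, at 28 of 28 pan T cell, 16 of 16 housekeeping, 5 of 13 myeloid and 1 of 15 hepatocyte genes. The part of open promoters in the shares of the lists was not tested. The hepatocyte gene with an open promoter was Apoa1. Its end region was 1084 bp wide, with a midpoint 1450 bp from a start site, so the same region may count for both.

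**Figure D5:**
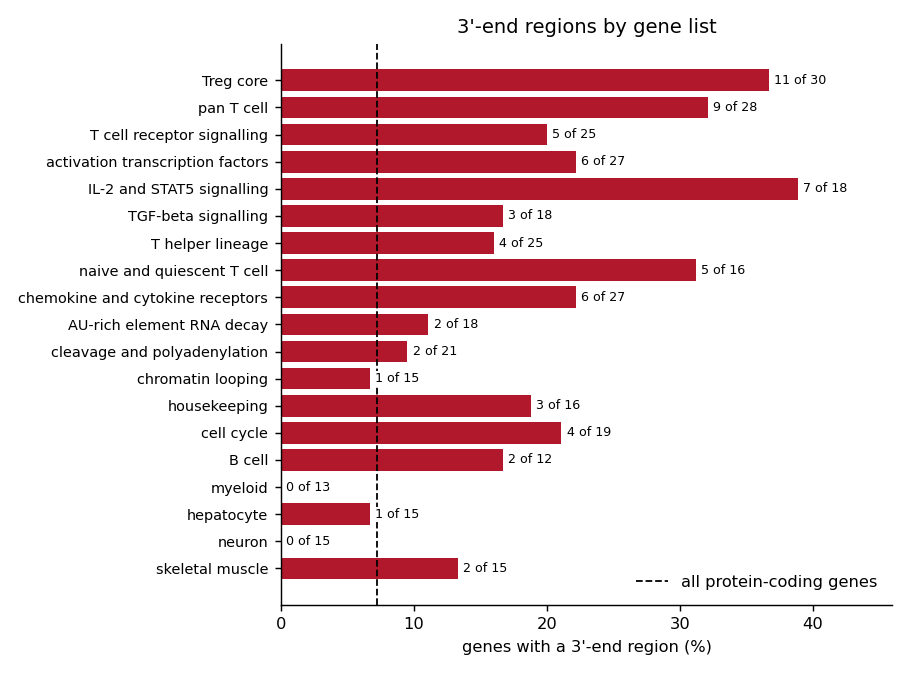
Percent of genes in each list with an accessible 3′ end, with counts beside the bars and a dashed line at 7.26%, the share of all protein-coding genes. The lists of interleukin-2 signalling (38.9%) and the regulatory T cell core (36.7%) had the highest shares, and both count Il2ra and Socs2.

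Where ends of 2 or more genes met, the strongest region by the mean percentile of signal over both replicates lay between Shf, an adaptor protein, and Duox1, a dual oxidase, at 14.3 and 16.0 with the CTCF letters. Dnajc5b with 1700064H15Rik followed at 13.5 and 15.0, Psmg4 with Slc22a23 at 14.5 and 13.2, Vgll4 with Atg7 at 11.6 and 12.8, and Boll with Mars2 at 11.3 and 11.99. The widest regions after that of Stat3 and Stat5a were at Ucp2 (3186 bp), Islr (3156 bp) and Nfe2l3 (3025 bp), with signals from 3.23 to 4.39 in replicate 1 and from 3.22 to 4.10 in replicate 2.

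At the limit of 1 kb from the end, the last regions inside were those of 1500009C09Rik, 1000 bp before its end with a signal of 10.5 and 9.06, of Pebp1, 1000 bp past it with 5.01 and 3.48, and of Rpl6, 999 bp past it with 3.40 and 3.44. The next outside were at Stard3nl (1001 bp, 6.98 in replicate 1), Nlrp4f (1002 bp, 9.55) and Rac2 (1002 bp, 3.69). At the limit of 1 kb from a start site, Otud7b (1005 bp), Mos (1007 bp) and Rprd2 (1015 bp) lay just inside the rule with 9.11, 4.37 and 7.26 in replicate 1. Hpd (999 bp), Ptbp1 (993 bp) and Chrm1 (991 bp) lay just outside it with 11.4, 4.78 and 11.2. Of the 1504 regions, 94.1% were matched to a region of replicate 2 that also met the rule.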

How the data were processed

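The authors deposited 1 list of accessible regions per library in narrowPeak form on mm10, made from that library's alignments and not from pooled reads, per the deposited text files. Each entry holds a signal, a −log10 p and −log10 q, a score limited to 1000 and a summit position, all deposited by the authors. The aligner, the peak caller and any shift of reads for the transposase are not given in the sources here. Depth is unknown, so no counting interval is given.

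Regions on chromosomes 1 to 19, X and Y (68832 and 78178) were compared with GENCODE M21 with Python 3.11.15, pandas 2.3.3 and pysam 0.24.0, and sequence was read from RefSeq GRCm38 by those tools. Motif letters were sought in the 100 bp to either side of each summit, on both strands and without a score. The strongest regions were aligned to the genome with blastn 2.17.0 (E value 1e-10). Values are descriptions; regions and genes are not replicates, and no test was made with 1 group of 2 libraries. The code of the selection was run on simulated regions placed near gene ends or on start sites. That run did not try the overlap of the replicates or places close to the 1 kb limits. Genes were named by rule: the 10 strongest regions by each measure, all of the regulatory T cell and pan T cell lists, the strongest of each other list, the 5 widest, the 5 strongest at ends of 2 or more genes, and those nearest each limit. A region that the rule takes is not reported here. Other members of the gene lists are named to account for small counts. The members, lists and motifs were chosen with earlier results of these data known.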

Additional observations from a re-analysis of the deposited data

How the results depend on the processing

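The values in this paragraph are, in order, the number of regions at gene ends, their share of distal regions, the share with a midpoint inside the gene, the share with CTCF letters, the share of the nearest genes with an open promoter, and the median signal. As reported they were 1504, 3.25%, 43.9%, 11.5%, 82.3% and 5.49. Values not named moved by less than the SD between the bases or, for the number, by less than 1.5 times. That SD comes from bases that keep mostly the same regions, so it is no measure of replicate error. Numbers not named ranged from 1273, with a −log10 q of at least 5 in both lists, to 1960, with replicate 1 left out. With 50% of the region overlapped, the shares of distal regions, inside the gene and with an open promoter were 3.21%, 44.3% and 82.0%. With a −log10 q of at least 5 in both lists, the 5 values after the number were 3.13%, 44.9%, 12.4%, 81.2% and 6.17. By summit, 43.3% lay inside the gene and 82.8% had an open promoter. Within 500 bp of the end there were 700 regions, 1.51%, of which 44.6% lay inside the gene. Within 2 kb there were 2927, or 6.32%, 41.7%, 11.1% and 83.2%. Over 2 kb from start sites, the share of distal regions was 3.04% and that with an open promoter 82.6%. With start sites of gene records alone, 3.19%, 45.4% and 82.9% were at gene ends, inside the gene and with an open promoter. With the ends of every transcript all 6 values were 3281, 7.08%, 45.2%, 10.3%, 86.9% and 5.73. With replicate 2 as the base, those after the number were 3.23%, 43.9%, 12.05%, 82.5% and 5.74. With 1 library left out, so that no overlap was asked for, they ranged from 3.33% to 3.34%, 43.7%, 10.1% to 10.4%, 83.0% to 83.5% and 4.67 to 5.06. With RefSeq start sites added, an alternative chosen after seeing the data, 3.29% were at gene ends and 82.9% had an open promoter. The causes of these shifts were not tested. No paired analysis was possible because there is 1 group. Depth is unknown, so an end without a region was not called open at this depth, which does not show that it is closed.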
